A study of Mus musculus with 8 samples.

Results

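Liver of tumour-bearing mice was examined here for 10 markers of Kupffer cells and other macrophages: Clec4f, Vsig4, Timd4, Marco, Cd5l, Adgre1, Csf1r, C1qa, C1qb and C1qc. The genes were chosen by name as markers of these cells and were looked up by symbol among the 55401 gene identifiers of the count table. All 10 were found, and all 10 passed the filter on low counts that left 17669 genes for testing. The livers came from NOD Scid Gamma (NSG) mice, an immunodeficient strain without mature T, B and NK cells that still has macrophages. Every animal carried a subcutaneous xenograft of a human colorectal cancer line, either Colo201, which the series calls high in FGF19, or HCT116, which it calls low. Each line gave 4 liver RNA-seq libraries made with an mRNA kit. Titles 2L and 2R (Colo201) and 1L and 1R (HCT116) were labelled male, and 4L and 4R (Colo201) and 3L and 3R (HCT116) were labelled female. The samples used here include no host without a tumour, each group rests on 1 tumour line, and the age of the animals is not given in the sources used here. Whether the L and R libraries that carry 1 number came from different animals is not stated, so p-values measure how far these libraries vary, and that variation may be technical.

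Kupffer cells are the resident macrophages of the liver sinusoids, where they take up particles, dying cells and complement-coated microbes from portal blood. They depend on signals through the CSF1 receptor, and in the mouse they are known by the lectin Clec4f, the complement receptor Vsig4 and the phosphatidylserine receptor Timd4. They also make C1q, the recognition part of the classical complement pathway, while hepatocytes make most of the other complement proteins.

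The libraries held 61347603 to 65457482 estimated counts, so depth was nearly even. Levels are given as CPM, counts relative to a library size scaled by TMM. Where 4 values of a line are listed, they stand in the order 2L, 2R, 4L, 4R for Colo201 and 1L, 1R, 3L, 3R for HCT116. X- and Y-linked genes went against the sex label: Xist, which is transcribed from an inactive X chromosome, read 0.276 to 0.805 CPM under the label female and 253 to 366 CPM under the label male. The Y-linked gene Ddx3y read 37.6 to 63.5 CPM under the label female and 0.00 CPM under the label male. Sex is therefore written only as labelled, and the libraries labelled male are those high in Xist. The library Colo201 4R stood apart. Epithelial genes of the bile duct list were high in it, with Krt19 at 25.9 CPM against 0.501 to 2.17 CPM in the other 7 libraries and Cldn7 at 4.98 CPM against 0.323 to 0.866 CPM. Values without it are given beside the results on the markers. The 7 lymphocyte markers summed to at most 0.124 CPM in any library, and 0 of them passed the filter.

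The 10 genes lie on 8 chromosomes of GRCm38, and only the 3 C1q genes are neighbours. C1qb (ENSMUSG00000036905), C1qc (ENSMUSG00000036896) and C1qa (ENSMUSG00000036887) lie side by side on the minus strand of chromosome 4, from 136880129 to 136886187, 136889804 to 136893065 and 136895917 to 136898803. Clec4f (ENSMUSG00000014542) lies on chromosome 6 from 83644542 to 83656187, and Cd5l (ENSMUSG00000015854) on chromosome 3 from 87357881 to 87371073. Vsig4 (ENSMUSG00000044206) lies on chromosome X from 96247203 to 96293438, Timd4 (ENSMUSG00000055546) on chromosome 11 from 46810800 to 46844332, Marco (ENSMUSG00000026390) on chromosome 1 from 120474538 to 120505024 and Adgre1 (ENSMUSG00000004730) on chromosome 17 from 57358691 to 57483527. Csf1r overlaps Hmgxb3 on the opposite strand, and since the strand setting of the counting is not given, reads of these 2 genes may be joined. Hmgxb3 stood at 17.0 to 22.9 CPM.

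RefSeq promoter windows of GRCm38.p6, the 250 bases before the start, were present for 7 of the 10 genes. They are shown because PU.1 (Spi1), the transcription factor that macrophages require, recognises purine-rich sites around the letters GAGGAA. Capitals mark GAGGAA or its reverse complement TTCCTC, searched on both strands. At least 1 match was found in 5 of the 7 windows, against 23.3% of 32851 promoter windows of the same length. The window of C1qc, which holds 1 match, overlaps an annotated exon, as does that of Clec4f, which holds 0. A match is not a binding site, and the part of PU.1 in the levels of these genes was not tested. The windows of C1qb (chr4:136886201-136886450, minus strand), Cd5l (chr3:87357631-87357880, plus strand) and Timd4 (chr11:46810549-46810798, plus strand) stand for a complement chain, a secreted scavenger protein and a surface receptor. Those of C1qb and Cd5l hold 1 match each, 30 and 66 bases before the start, and that of Timd4 holds 0.
C1qb: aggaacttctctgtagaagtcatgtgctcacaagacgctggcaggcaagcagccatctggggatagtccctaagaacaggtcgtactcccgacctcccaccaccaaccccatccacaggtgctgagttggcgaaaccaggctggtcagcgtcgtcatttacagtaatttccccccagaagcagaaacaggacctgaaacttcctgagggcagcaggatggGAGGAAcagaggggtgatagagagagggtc
Cd5l: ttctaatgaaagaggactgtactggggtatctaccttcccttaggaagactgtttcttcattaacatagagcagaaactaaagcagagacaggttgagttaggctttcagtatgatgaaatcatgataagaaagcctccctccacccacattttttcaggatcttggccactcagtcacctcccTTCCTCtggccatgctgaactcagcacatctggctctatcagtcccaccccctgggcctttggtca
Timd4: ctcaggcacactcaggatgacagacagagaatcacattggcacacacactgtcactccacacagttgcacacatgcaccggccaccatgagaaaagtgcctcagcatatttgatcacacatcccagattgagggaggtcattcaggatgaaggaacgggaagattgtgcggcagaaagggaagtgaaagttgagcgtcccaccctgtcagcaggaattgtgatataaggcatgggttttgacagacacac

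All 10 markers were expressed in every library. Compared per length, in the authors' FPKM, the order of the mean levels over 8 libraries was Cd5l (46.8), C1qa (45.2), Clec4f (39.9), C1qb (33.1), C1qc (21.2), Vsig4 (16.4), Marco (7.63), Csf1r (5.23), Adgre1 (2.56) and Timd4 (2.18). Neighbours such as Cd5l and C1qa did not differ beyond their spread, since Cd5l ranged from 22.8 to 73.9 FPKM and C1qa from 26.5 to 59.3 FPKM. The secreted products and the Kupffer cell lectin were thus the most abundant of the set, and the receptors Csf1r, Adgre1 and Timd4 the least.

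The main comparison asked whether these markers differ between hosts of the 2 tumour lines. None of the 10 passed the test: 0 rose and 0 fell in hosts of Colo201, with log2 fold changes of -0.28 to 0.25, adjusted p of 0.460 to 0.979 in edgeR and 0 genes at an unadjusted p under 0.05. DESeq2 also called 0. Over all genes tested 4.78% were called (2.48% higher and 2.3% lower in Colo201) and 21.7% had an unadjusted p under 0.05. The median log2 fold change was 0.04 for the 10 markers and 0.0021 for all genes. The lines overlapped for all 10 markers, and 12.3% of all genes tested had lines that did not overlap. For 7 of the 10 all libraries labelled male lay above all labelled female. Since each line holds both labels, overlap of the lines was fixed for those 7 and says nothing on the lines. In bulk tissue, fewer Kupffer cells and less of a transcript per cell cannot be told apart.

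**Figure D1:**
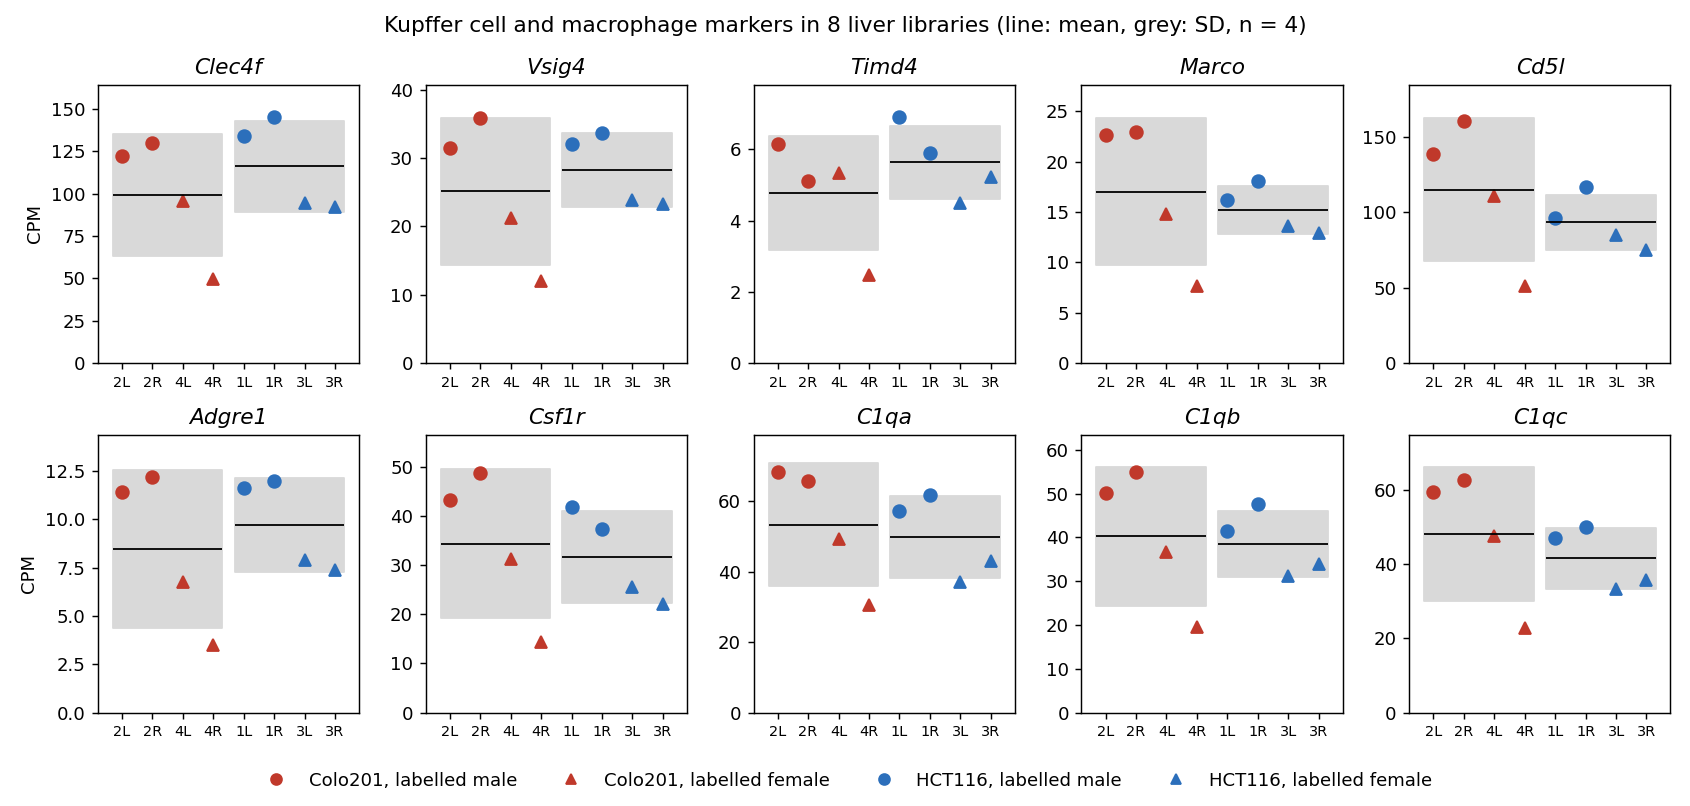
CPM of the 10 markers in each library (x axis: library; y axis: CPM from 0), with red for hosts of Colo201, blue for hosts of HCT116, circles for libraries labelled male and triangles for those labelled female; black lines are the mean and grey bands the SD over 4 libraries. Colo201 4R is the lowest library in all 10 panels, for example at 49.3 CPM of Clec4f where the others held 92.1 to 145 CPM.

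Clec4f, the lectin that in the mouse liver marks Kupffer cells, held 122 and 130 CPM in the L and R libraries of Colo201 number 2 and 95.8 and 49.3 CPM in those of number 4. HCT116 number 1 held 134 and 145 CPM and number 3 held 94.2 and 92.1 CPM. The libraries labelled male were the high ones in both lines, and 4R lay far below the other 7. The means were 99.2 ± 36.2 and 116 ± 27.1 CPM (SD, n = 4 each). The log2 fold change was -0.25 with an SE of 0.18 and an adjusted p of 0.460 in edgeR. Without 4R it was -0.07 (SE 0.09).

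Vsig4, which binds C3b-coated particles, was at 12.0 to 35.9 CPM in Colo201 and at 23.3 to 33.6 CPM in HCT116. Timd4, a receptor for phosphatidylserine on dying cells, held 2.48 to 6.15 CPM in Colo201 and 4.50 to 6.92 CPM in HCT116. Adgre1, which encodes the F4/80 antigen, held 11.4, 12.2, 6.76 and 3.50 CPM under Colo201 and 11.6, 12.0, 7.90 and 7.36 CPM under HCT116. These 3 receptors had log2 fold changes of -0.23, -0.25 and -0.28, none of which passed. Without 4R the values were -0.04, -0.06 and -0.07.

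Marco and Cd5l belong to the scavenger group. Marco, a class A scavenger receptor, held 22.6, 22.9, 14.8 and 7.67 CPM in the 4 Colo201 libraries and 16.2, 18.1, 13.6 and 12.9 CPM in the HCT116 libraries. Cd5l, a secreted protein that supports macrophage survival, held 139, 161, 111 and 51.1 CPM under Colo201 and 96.5, 117, 84.8 and 75.0 CPM under HCT116. Within each sex label every Colo201 library other than 4R lay above both HCT116 libraries for both genes. The same held for Csf1r, C1qa, C1qb and C1qc, while 4R lay below every HCT116 library for each of these genes. The share of all genes with this pattern was not counted, and 0 of the 10 markers passed between the lines with or without 4R. No difference between the lines is therefore read from the pattern. The log2 fold change of Cd5l was 0.25 (SE 0.23, adjusted p = 0.568, edgeR) with all libraries and 0.48 (SE 0.11, adjusted p = 0.0580) without 4R. That of Marco was 0.09 and, without 4R, 0.31 (SE 0.11, adjusted p = 0.160).

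Csf1r, the receptor for CSF1 and IL34, held 43.2, 48.7, 31.3 and 14.4 CPM under Colo201 and 41.9, 37.4, 25.6 and 22.1 CPM under HCT116. Its log2 fold change was 0.08 with an adjusted p of 0.875 in edgeR. The C1q chains A, B and C form 1 protein. Over the 8 libraries C1qa ranged from 30.4 to 68.2 CPM, C1qb from 19.5 to 54.9 CPM and C1qc from 22.9 to 62.7 CPM, and 4R was the lowest for each. The CPM ratio of C1qb to C1qc, which is not per length, stayed between 0.770 and 0.952 and that of C1qa to C1qb between 1.19 and 1.56. The log2 fold changes of the 3 chains were 0.08, 0.01 and 0.18, and without 4R 0.22, 0.21 and 0.38, the last with an adjusted p of 0.0619 in edgeR.

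Without Colo201 4R, 0 of 10 passed between the lines as well, against 2.92% of the 18842 genes then tested. At an unadjusted p under 0.05 there were 4, all higher in Colo201 (Cd5l, C1qc, Marco and Csf1r), where 20.7% of all genes had such a p. The standard errors of the 10 were 0.15 to 0.23 with 4R and 0.09 to 0.16 without it.

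**Figure D2:**
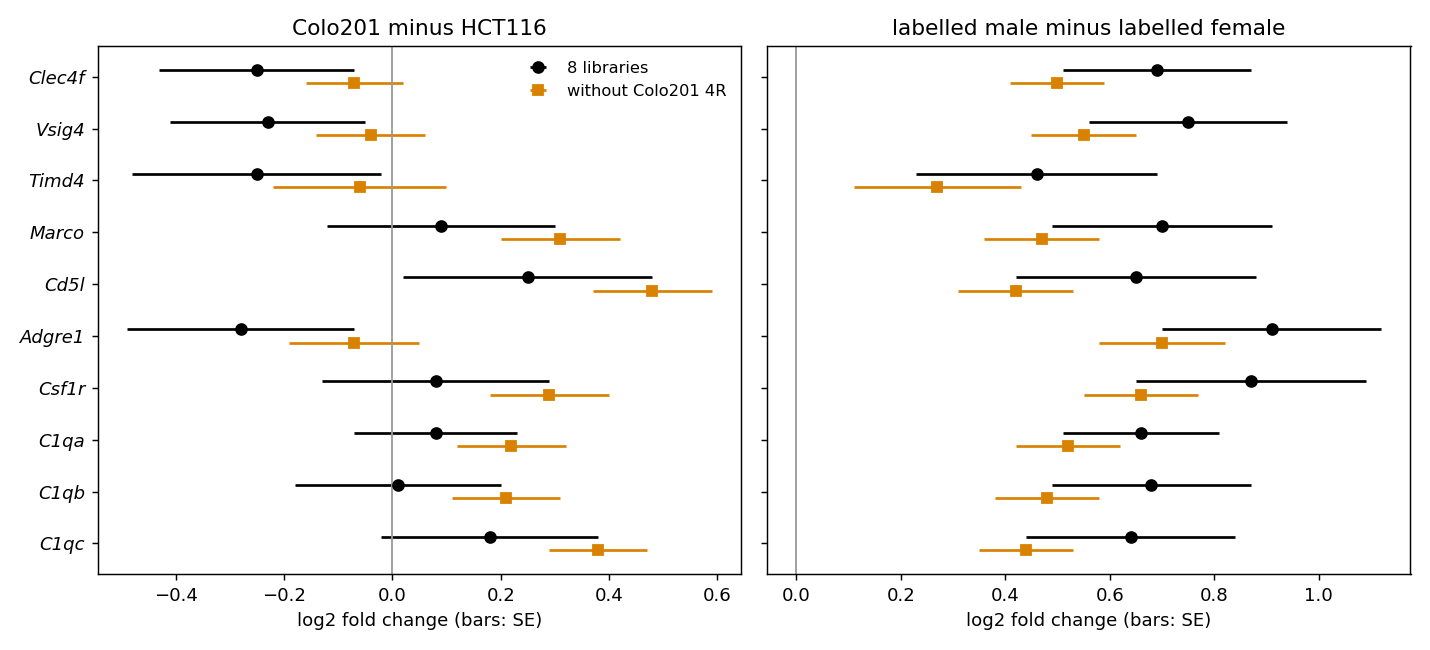
Log2 fold changes of the 10 markers (points) with their standard errors (bars) from edgeR, for Colo201 minus HCT116 (left) and for libraries labelled male minus labelled female (right), with all 8 libraries (black) and without Colo201 4R (orange). On the left the values lie between -0.28 and 0.25 with all libraries and between -0.07 and 0.48 without 4R, and on the right all lie above 0.

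Colo201 4R was the lowest of the 8 libraries for 10 of 10 markers, against 10.8% of all genes tested. It held 46.0 to 61.9% of the CPM of Colo201 4L, the library with the same title number, and at most 60% for 9 of the 10, where 11.5% of all genes were that low. The other title numbers gave no such gap: the log2 ratio of L over R was -0.28 to 0.23 for number 1, -0.21 to 0.27 for number 2 and -0.22 to 0.21 for number 3, against 0.69 to 1.12 for number 4. The summed CPM of the 10 markers was 213 in 4R and 351 to 599 in the other libraries.

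Other cells moved in 4R too. Of 12 endothelial markers 9 were lowest in it, and their sum was 290 CPM against 344 to 532 elsewhere. Of 8 cholangiocyte markers 4 were highest in it, Krt19 and Cldn7 among them, and the sum was 77.6 CPM against 19.6 to 59.6 CPM. The part of these in the low marker levels was not tested. The 10 stellate cell genes summed to 259 CPM, within the 191 to 277 CPM of the other libraries.

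**Figure D3:**
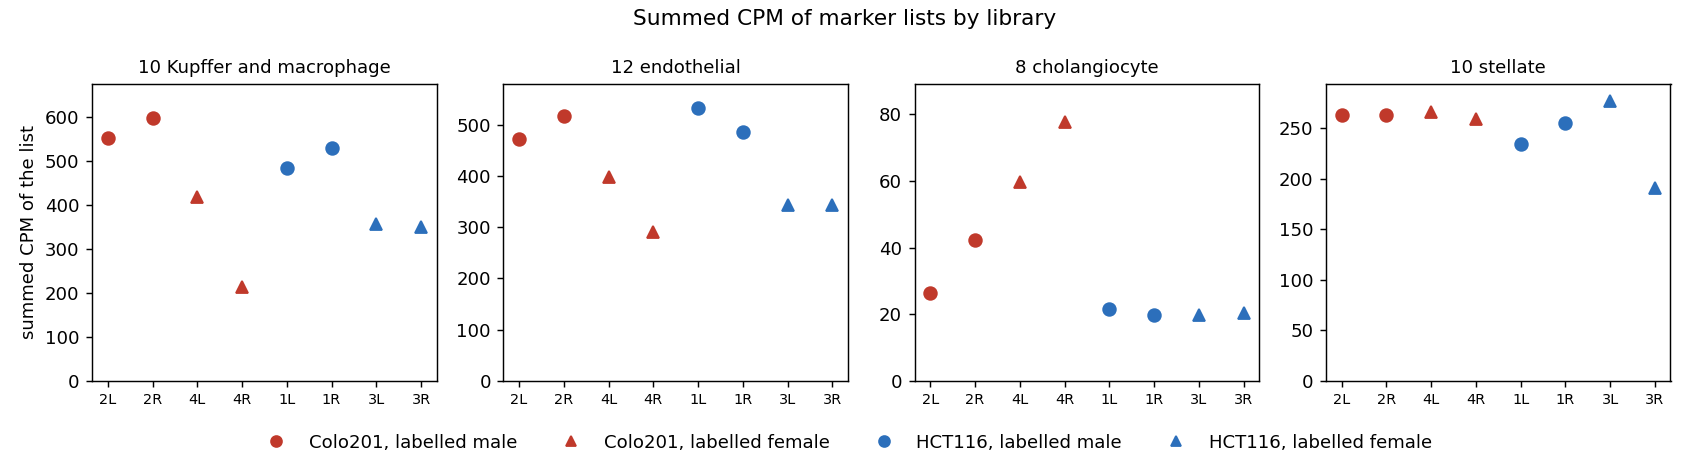
Summed CPM (y axes, from 0) of 4 marker lists in each library (x axes), coloured by tumour line and shaped by sex label. Colo201 4R is the lowest library for the Kupffer cell and endothelial lists, at 213 and 290 CPM, and the highest for the cholangiocyte list, at 77.6 CPM.

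The second comparison set the libraries labelled male (numbers 1 and 2) against those labelled female (numbers 3 and 4), with line as a covariate. All 10 markers had a positive log2 fold change, 0.46 to 0.91, with a median of 0.68 against -0.00092 for all genes tested. For 7 of 10 markers all 4 libraries labelled male lay above all 4 labelled female, which held for 5.06% of all genes. Timd4, Cd5l and C1qc were the 3 whose labels overlapped. C1qa was the 1 marker that passed in edgeR (0.66, SE 0.15, adjusted p = 0.0439), where 1.96% of all genes were called higher and 2.06% lower. Its means were 63.2 ± 4.78 CPM in the libraries labelled male and 39.9 ± 8.04 CPM in those labelled female (SD, n = 4 each).

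Adgre1 had the largest value of the 10, 0.91 (SE 0.21, adjusted p = 0.0521, edgeR), at 11.8 ± 0.371 against 6.38 ± 1.98 CPM. Csf1r followed with 0.87 (adjusted p = 0.0648) and Vsig4 with 0.75 (adjusted p = 0.0660). At an unadjusted p under 0.05 there were 9 markers, all but Timd4, where 9.3% of all genes were higher at such a p. DESeq2 called 9. Without Colo201 4R edgeR called 5 (Adgre1, Csf1r, Clec4f, Vsig4 and C1qa), against 1.22% of all genes called higher, with log2 fold changes of 0.27 to 0.70 over the 10. Without Colo201 4L it called 3 (Clec4f, Csf1r and C1qa), and without Colo201 2L or 2R or HCT116 1L, 1R, 3L or 3R it called 0. Sex label and title number cannot be told apart, since each number carries 1 label.

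Endothelial markers moved in the same direction, as 5 of 12 passed, where 1.96% of all genes were called higher, all 5 higher in libraries labelled male (Stab1, Stab2, Pecam1, Cdh5 and Ptprb). Their sum was 473 to 532 CPM there and 290 to 398 CPM in libraries labelled female, without overlap. Without 4R 1 of the 12 passed, Stab2 (0.64, adjusted p = 0.0375, edgeR). The part of these genes in the marker levels was not tested. Of 15 general myeloid genes, 3 passed and were higher (Cd68, Ctss and Cd74, with log2 fold changes of 0.77, 0.66 and 1.07), as were Siglec1 (0.86) and Mrc1 (0.49) among 8 further Kupffer cell genes. Without 4R Ctss still passed (0.57, adjusted p = 0.0227, edgeR), whereas Cd68, Cd74, Siglec1 and Mrc1 had adjusted p of 0.0721, 0.112, 0.0550 and 0.0584. Hmox1, the haem-degrading enzyme, had -0.61 with all libraries and passed without 4R as lower in libraries labelled male (-0.90).

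Whether the difference between the lines itself depended on the sex label was tested as an interaction. The interaction was Colo201 minus HCT116 under the label female, minus the same under the label male. It was negative for all 10 markers, -0.65 to -0.12, with a median of -0.38 against 0.0046 for all genes tested. It passed for 0, with 0 at an unadjusted p under 0.05 in edgeR and 0 called by DESeq2. Over all genes 0.0283% passed and 4.1% had such an unadjusted p. Without 4R the values were -0.25 to 0.33, with 5 above 0.

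Proportions among the 10 markers varied over a smaller range than their levels when all 8 libraries were used. The SD of log2 CPM over the 8 libraries was 0.42 to 0.62 for the single markers, and the SD of the log2 ratio was 0.09 to 0.37 over the 45 pairs of markers. Without 4R the ranges were 0.20 to 0.42 and 0.09 to 0.40, so they then overlapped almost wholly. The steadiest pair was Marco and C1qb, at a ratio of 0.380 to 0.451. Because the pairs share libraries and genes, they are not independent of each other.

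Some proportions did separate the tumour lines, 4R included. Clec4f made up 22.0, 21.7, 22.9 and 23.1% of the summed CPM of the 10 markers under Colo201 and 27.6, 27.4, 26.5 and 26.3% under HCT116. Cd5l made up 25.1, 26.8, 26.5 and 24.0% in Colo201 and 19.9, 22.2, 23.8 and 21.4% in HCT116. In counts, which are not per length, Clec4f was thus above Cd5l in each HCT116 library and below it in each Colo201 library.

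In all, 5 of the 10 shares did not overlap between the lines, where 2.45% of all genes tested, each divided by the same sum, did not. The markers are parts of that sum and moved with it, which other genes need not do. The 2.45% is therefore not a like measure, and no excess is read from it. Vsig4 (5.06 to 5.99% against 6.36 to 6.68%) and Adgre1 (1.61 to 2.06% against 2.10 to 2.39%) were lower in Colo201, like Clec4f. C1qc (10.5 to 11.3% against 9.39 to 10.2%) was higher, like Cd5l. Shares of 1 sum are tied to each other, so a higher share of 1 marker lowers those of the rest, and no test was made on them.

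**Figure D4:**
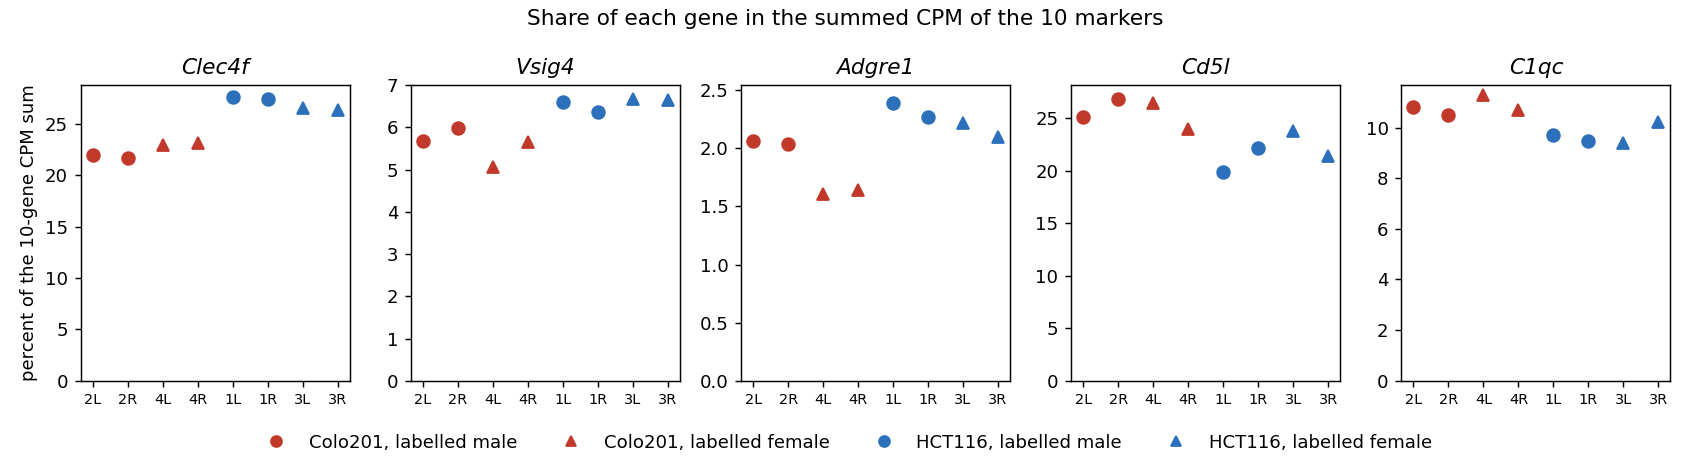
Share of 5 markers in the summed CPM of the 10 (y axes: percent, from 0) in each library (x axes), coloured by tumour line and shaped by sex label. The red points of Clec4f, at 21.7 to 23.1%, lie below the blue ones, at 26.3 to 27.6%, and those of Cd5l, at 24.0 to 26.8%, lie above the blue ones, at 19.9 to 23.8%.

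Among the genes outside the 10 whose log2 CPM followed the mean of the standardised markers most closely over the 8 libraries were Pla2g7, Dok2, Gpr182, Msr1, Cfp, Pirb, Sla, Cd38 and Fcgr3, with Pearson correlations of 0.990 to 0.963. Over the 7 libraries without 4R their correlations were 0.897 (Pirb) to 0.984 (Cfp). They are described as among the highest of 12706 genes with at least 1 CPM on average, and the 8 points share their lines, labels and title numbers. Pla2g7, which encodes a secreted platelet-activating factor hydrolase, held 8.09, 9.03, 6.29 and 3.31 CPM under Colo201 and 7.60, 7.35, 5.86 and 5.26 CPM under HCT116. Cfp, which encodes properdin of the alternative complement pathway, ranged from 10.1 CPM in 4R to 38.8 CPM in 2R. Msr1 is another class A scavenger receptor and Fcgr3 an Fc receptor, whereas Gpr182 belongs to the endothelial list.

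Among the 8 further Kupffer cell genes 2 fell in hosts of Colo201, 0 rose and 6 did not pass, with a median log2 fold change of -0.34, where 2.3% of all genes fell and the median was 0.0021. Siglec1, the sialic acid receptor CD169 of tissue macrophages, held 7.26, 7.10, 5.12 and 3.19 CPM under Colo201 and 15.2, 15.9, 9.28 and 6.91 CPM under HCT116. In log2 units it fell by 1.04 (SE 0.17, adjusted p = 0.0184, edgeR), and without 4R it fell by 0.93 (adjusted p = 0.0306). Within each sex label both Colo201 libraries lay below both HCT116 libraries. Its call was lost when HCT116 1L, 1R or 3L or Colo201 2L was left out, where the adjusted p was 0.0569 to 0.0668.

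Slc40a1, the iron exporter ferroportin, which hepatocytes express as well, fell by 0.44 (SE 0.07, adjusted p = 0.0200), with 190 to 208 CPM in Colo201 and 247 to 279 CPM in HCT116, without overlap. Without 4R its adjusted p was 0.0419. Its call was lost when Colo201 2L or 4L or HCT116 1L or 1R was left out, at an adjusted p of 0.0583 to 0.0719. Fcna, Clec1b, Cd163, Folr2, Hmox1 and Mrc1 did not pass. Of these Mrc1, the mannose receptor shared with sinusoidal endothelium, had -0.34 (adjusted p = 0.0661) and Clec1b -0.43.

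The CSF1 receptor has 2 ligands. Csf1 held 14.0, 13.1, 6.79 and 7.83 CPM under Colo201 and 13.1, 15.9, 10.4 and 11.6 CPM under HCT116 (log2 fold change -0.35, adjusted p = 0.188, edgeR). Il34 stood at no more than 2.64 CPM (-0.19, adjusted p = 0.767).

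Of 21 ligands and transcription factors of this axis 1 rose and 0 fell between the lines, a share near the 4.78% of all genes called in either direction. That was Id1, a target of BMP signalling expressed in many liver cells (1.07, SE 0.22, adjusted p = 0.0336; adjusted p = 0.0642 without 4R). Its call was lost without any single library other than Colo201 2L, at an adjusted p of 0.0505 to 0.113. Nr1h3, which encodes LXR alpha of hepatocytes and Kupffer cells, had 0.34 (SE 0.08, adjusted p = 0.0509; adjusted p = 0.0703 without 4R), at 83.8 to 101 CPM in Colo201 against 67.7 to 73.8 CPM in HCT116. Spi1, which encodes PU.1, had 0.45 (adjusted p = 0.276) and, without 4R, 0.64 (adjusted p = 0.0580, edgeR). Spic and Id3, other Kupffer cell factors, had 0.16 and 0.15, and without 4R 0.43 and 0.02. By sex label 2 of the 21 were higher and 2 lower, where 1.96% of all genes were called higher and 2.06% lower. Higher in libraries labelled male were Csf1 (0.64, adjusted p = 0.0384, edgeR) and the myeloid factor Irf8 (0.75, adjusted p = 0.0346). Lower were Cebpa (-0.46, adjusted p = 0.0396), which hepatocytes express too, and Bhlhe41 (-2.86, adjusted p = 0.0404), a repressor that is also part of the circadian clock. Without 4R 0 of these 4 passed, with adjusted p of 0.106, 0.0856, 0.108 and 0.0809 in edgeR, while Smad7 then passed as higher (0.65).

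Of 16 niche signals 1 fell, where 2.3% of all genes did. That was the chemokine Cxcl12 (-0.61, SE 0.09, adjusted p = 0.0121, edgeR), with 220 to 283 CPM in Colo201 and 343 to 394 CPM in HCT116. Without 4R 2 of the 16 were lower, where 2.92% of all genes were called in either direction. These were Cxcl12 (adjusted p = 0.0308, edgeR) and Tgfbr1 (-1.11, adjusted p = 0.0400). The Notch ligand Dll4 and the BMP ligands Gdf2 and Bmp10 did not pass, with log2 fold changes of -0.22, 0.01 and -0.23.

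The other proteins of the C1 complex, the proteases C1ra and C1s1 made by hepatocytes, had log2 fold changes of -0.0044 and 0.14 between the lines, and neither passed. By sex label 3 of 13 early complement genes passed, where 1.96% of all genes were called higher and 2.06% lower. C3, the central complement protein, was higher in libraries labelled male (0.40, adjusted p = 0.0346), as C1qa was, while C1s1 (-0.37, adjusted p = 0.0321) and C4bp, an inhibitor of the classical pathway (-0.72, adjusted p = 0.0125), were lower. Without 4R C4bp passed (adjusted p = 0.0379), and C3 and C1s1 had adjusted p of 0.0840 and 0.0801. Of 6 tested complement receptors 0 passed in either comparison.

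In the list of phosphatidylserine recognition and scavenging, 2 of 14 fell and 1 rose between the lines. Over all genes tested 2.3% fell and 2.48% rose. Mertk, a receptor for dying cells on macrophages and endothelium, fell by 0.72 (SE 0.14, adjusted p = 0.0301), Pros1, one of its bridging ligands and a product of hepatocytes, fell by 0.39 (adjusted p = 0.0322), and the ER chaperone Calr rose by 0.55 (adjusted p = 0.0157). The call of Mertk was lost when Colo201 2L or 4L or HCT116 1L, 1R or 3L was left out (adjusted p up to 0.0902; 0.0480 without 4R), and that of Pros1 without each library other than HCT116 3R (up to 0.114). Calr lost its call without HCT116 1L, 1R or 3L or Colo201 4L (up to 0.0617; 0.0247 without 4R). Of 15 general myeloid genes and 10 genes of recruited monocytes and lipid-associated macrophages 0 passed between the lines. Ccr2, Ly6c2 and Cx3cr1, which mark blood-derived monocytes, reached at most 1.69 CPM.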

How the data were processed

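Per the labels' protocols, total RNA of homogenized livers was taken up in TRIzol and made into libraries with Illumina's stranded mRNA kit. HISAT2, StringTie and the build GRCm38 (mm10) are named in the submitters' processing notes, with no version or strand setting. The authors deposited estimated counts per gene, all whole numbers, of which 43.9 to 45.0% of those from 1 to 16 were multiples of 4; they were used unchanged. The authors' FPKM served to order genes per length and in alternatives. Of 55401 identifiers, 55141 had a symbol in GENCODE vM21, and the other 260 held at most 0.0343% of the counts.

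Genes were filtered with filterByExpr by line and sex label, scaled by TMM and tested with edgeR 4.0.16 (glmQLFit, glmQLFTest) in R 4.3.3, with line and sex label as terms. The interaction used 1 mean for each combination of line and label. P-values are two-sided and adjusted by Benjamini-Hochberg over all genes, with a threshold of 0.05. Each SE is the log2 fold change divided by the square root of F. The code was tested on simulated data. Alternatives used DESeq2 1.42.0, limma 3.58.1 and edgeR with other settings. Named genes are the 10 markers, list genes that passed or lay near the threshold, genes of a shared step, the 10 most alike in pattern (log2 of CPM + 0.1) and genes that set Colo201 4R apart. Cldn7, Hmgxb3, Clec1b, Hmox1, Smad7, Tgfbr1, Dll4, Gdf2, Bmp10, Mpeg1 and the genes of recruited monocytes and lipid-associated macrophages were named after their values were seen. The members and lists were chosen with earlier results of these data known. Some genes that this rule names are not reported here. Correlations and pair ratios without Colo201 4R were added after seeing the data.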

Additional observations from a re-analysis of the deposited data

How the results depend on the processing

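Between the lines 0 of the 10 markers passed under any alternative run. Over all genes, 439 were higher and 406 lower in Colo201. DESeq2 gave 970 and 1023, limma 156 and 166 on log2(FPKM + 1) and 193 and 216 on log2(FPKM + 0.1), and edgeR without the sex label 88 and 67. With the libraries of each title number summed it gave 0 and 0, with 1787 and 1731 genes at an unadjusted p under 0.05. Single libraries left out in turn gave 86 to 267 higher and 89 to 283 lower. By sex label DESeq2 gave 797 higher and 788 lower and called 9 markers; leaving out 1 library gave 154 to 301, 173 to 330 and 0 to 5. For the interaction DESeq2 gave 25 and 28, and leaving out 1 library 0 to 11 and 0 to 10. No paired analysis was possible because the lines share no title number.

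Log2 fold changes near 0 changed sign between the lines. Csf1r was -0.01 with limma on log2(FPKM + 0.1). C1qb was -0.02 with library totals only, -0.0038 with a minimum of 1 CPM on average, and -0.06 with limma on FPKM under both pseudocounts. Leaving out 1 library gave Marco -0.04 to 0.31, Csf1r -0.15 to 0.29, C1qa -0.05 to 0.22, C1qb -0.14 to 0.21 and C1qc -0.03 to 0.38. Outside the 10, Il34 ranged from -0.35 to 0.17, Spic from -0.06 to 0.43 and C1ra from -0.04 to 0.05. The interaction ranged from -0.78 to 0.19 for Clec4f, -0.79 to 0.33 for Timd4, -0.95 to 0.18 for Csf1r, -0.58 to 0.12 for C1qa and -0.94 to 0.13 for C1qc. The causes were not tested. Siglec1, Slc40a1, Id1, Mertk, Pros1 and Calr lost their calls without the sex label as a term and with title numbers summed, and Siglec1, Id1, Mertk and Pros1 also with limma on FPKM. With libraries of a title number summed, Cxcl12 lost its call (adjusted p = 0.137, edgeR). With 4 libraries a line, 1 of which stands apart, an absent call does not show equal levels.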

Other observations

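Mpeg1, which encodes a perforin-like protein of macrophages, did not follow the 10 markers. It held 126, 99.0, 169 and 198 CPM under Colo201 and 115, 140, 146 and 141 CPM under HCT116, so 4R was the highest library and all 4 libraries labelled female lay above those labelled male. Its log2 fold change by sex label was -0.44 (SE 0.14, adjusted p = 0.139, edgeR) and did not pass. Of the 15 general myeloid genes it was the 1 that was highest in 4R, where 12 were lowest.

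The 8 neutrophil markers summed to at most 3.76 CPM in any library, and 4R had the lowest sum. The 10 genes of recruited monocytes and lipid-associated macrophages summed to 65.7 CPM in 4R, within the 55.2 to 68.6 CPM of the other libraries. Of that sum Cd9, Spp1 and Plac8 held 31.7, 21.4 and 10.6 CPM. Among the 10 genes 3 were lowest in 4R, namely Spp1, Trem2 and Gpnmb, and 1, Plac8, was highest. Trem2 held 0.0810 CPM there against 0.532 to 1.49 CPM elsewhere, and Gpnmb 0.00 CPM against 0.232 to 0.980 CPM.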
